A study of Mus musculus with 30 samples.

Results

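The retinoic acid genes described here are 9 genes chosen by symbol for their roles: *Stra6*, *Rdh10* and *Aldh1a2*, which take up retinol and convert it into retinoic acid; *Crabp1* and *Crabp2*, which bind retinoic acid in the cytoplasm; *Cyp26b1*, which degrades it; and *Rara*, *Rarb* and *Rarg*, which encode its nuclear receptors. All 9 were present among the 50833 genes with counts, and all 9 passed the filter on low counts in every comparison, which tested between 13076 and 13794 protein-coding autosomal genes.

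PolyA RNA-sequencing was performed on forelimb buds of wild-type Swiss Albino mouse embryos after a single intraperitoneal injection of the pregnant female at embryonic stage E10.5. Treated females received Wnt-C59 (C59), an inhibitor of porcupine, the enzyme that adds a lipid to WNT proteins and is needed for their secretion. Control females received DMSO. Limb buds were collected 1, 6, 12, 18 and 24 h later, with 3 libraries in each of 10 groups and 30 libraries in all. The study's methods state that each library came from 1 pair of forelimb buds, and that C59 was diluted in a DMSO vehicle that also held methylcellulose and Tween-20 whereas controls received DMSO in saline. The time course follows how gene expression changes while WNT signaling is blocked and after it returns.

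Retinoic acid is made from retinol, which enters cells through STRA6, is oxidized to retinal by RDH10 and then to retinoic acid by ALDH1A2. CYP26 enzymes degrade retinoic acid, and in the limb bud *Cyp26b1* clears it from the distal mesenchyme, whereas the flank beside the limb bud is a known source. Retinoic acid binds RAR receptors, which pair with RXR receptors at repeated DNA motifs and regulate genes such as *Rarb* itself.

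The libraries held 18188636 to 38974885 counts. In each of the 30 replicate pairs the counts differed beyond sampling noise (chi-square divided by its degrees of freedom, 3.21 to 47.6). C59 18 h replicate 3 stood farthest from its group. *Axin2*, a WNT target, fell by 1.97 on the log2 scale at 6 h and by 1.45 at 12 h, and differed by -0.16 at 18 h and -0.08 at 24 h (adjusted p = 0.333 and 0.507). The forelimb gene *Tbx5* had 188 to 199 CPM (counts scaled to the size of the library) at 1 h in DMSO and the hindlimb gene *Pitx1* had 0.441 to 0.712. *Pitx1* and *Tbx4*, the 2 hindlimb genes listed, together summed to 9.83 to 12.1 CPM in these libraries. The summed FPKM (fragments scaled to transcript length and library size) of 4 genes of the Y chromosome was 0 in all 3 DMSO libraries at 6 h and 19.8 to 33.2 in the C59 libraries of that time. At 1 h it was 0.0469 to 9.03 in DMSO and 21.2 to 38.2 with C59. Sex and treatment therefore cannot be told apart at 6 h for a gene that differs between the sexes. The sums did not overlap at 1 h either, so the same limit holds for the calls at 1 h.

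Levels of different genes were compared as FPKM, since this unit is scaled to transcript length. In DMSO limb buds at 1 h, *Crabp2* was the most abundant of the 9 transcripts at 315 ± 39.5 FPKM (SD, n = 3), followed by *Crabp1* at 199 ± 1.30 FPKM. *Rarg* reached 63.7 ± 2.38 FPKM and *Cyp26b1* 43.2 ± 0.510 FPKM. *Stra6* had 24.1 ± 1.72 FPKM, *Rara* 18.1 ± 0.791 FPKM and *Rarb* 5.54 ± 0.453 FPKM. The enzymes of synthesis were the lowest, with *Rdh10* at 4.36 ± 0.474 FPKM and *Aldh1a2* at 3.99 ± 1.09 FPKM, and only this last pair of neighbours overlapped between libraries.

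The order shifted as DMSO limb buds developed. Between 1 h and 24 h, 7 of the 9 genes passed the test in DMSO limb buds, against 59.3% of all genes tested. Of these, 3 were higher (30.2% of all genes) and 4 lower (29.2%), and 3 changed by more than 1 on the log2 scale (12.0% of all genes). The median log2 fold change of the 9 genes was 0.06, and that of all genes tested was 0.00. *Aldh1a2* rose 4.46-fold (log2 fold change 2.16 ± 0.14 SE, adjusted p = 1.07e-08), from 10.9, 9.56 and 16.3 CPM to 52.4, 51.4 and 62.6 CPM, and *Rdh10* rose by 0.44 (adjusted p = 3.07e-04) and *Rara* by 0.46 (adjusted p = 1.40e-06) on the same scale. *Crabp1* fell by 1.07 (adjusted p = 3.03e-10), *Crabp2* fell by 0.76 (adjusted p = 1.30e-07) and *Rarb* fell by 1.23 (adjusted p = 1.21e-06) on the log2 scale. At 24 h *Aldh1a2* stood at 18.9 ± 2.03 FPKM, above *Rdh10* (6.19 ± 0.441 FPKM) and below *Stra6* (26.5 ± 0.343 FPKM). *Cyp26b1* fell by 0.15 (adjusted p = 0.0176), a call that did not hold once DMSO 1 h replicate 2 (adjusted p = 0.0536) or, in turn, DMSO 24 h replicate 3 (0.124) was left out, in the fit of all 30 libraries (0.0924), with upper-quartile factors (0.05003) or with limma on log2(FPKM + 1) (0.189) and log2(FPKM + 0.1) (0.190), while *Rarg* and *Stra6* did not pass (adjusted p = 0.213 and 0.0812). All adjusted p-values are from edgeR's quasi-likelihood test with Benjamini-Hochberg adjustment over all genes tested.

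**Figure D1:**
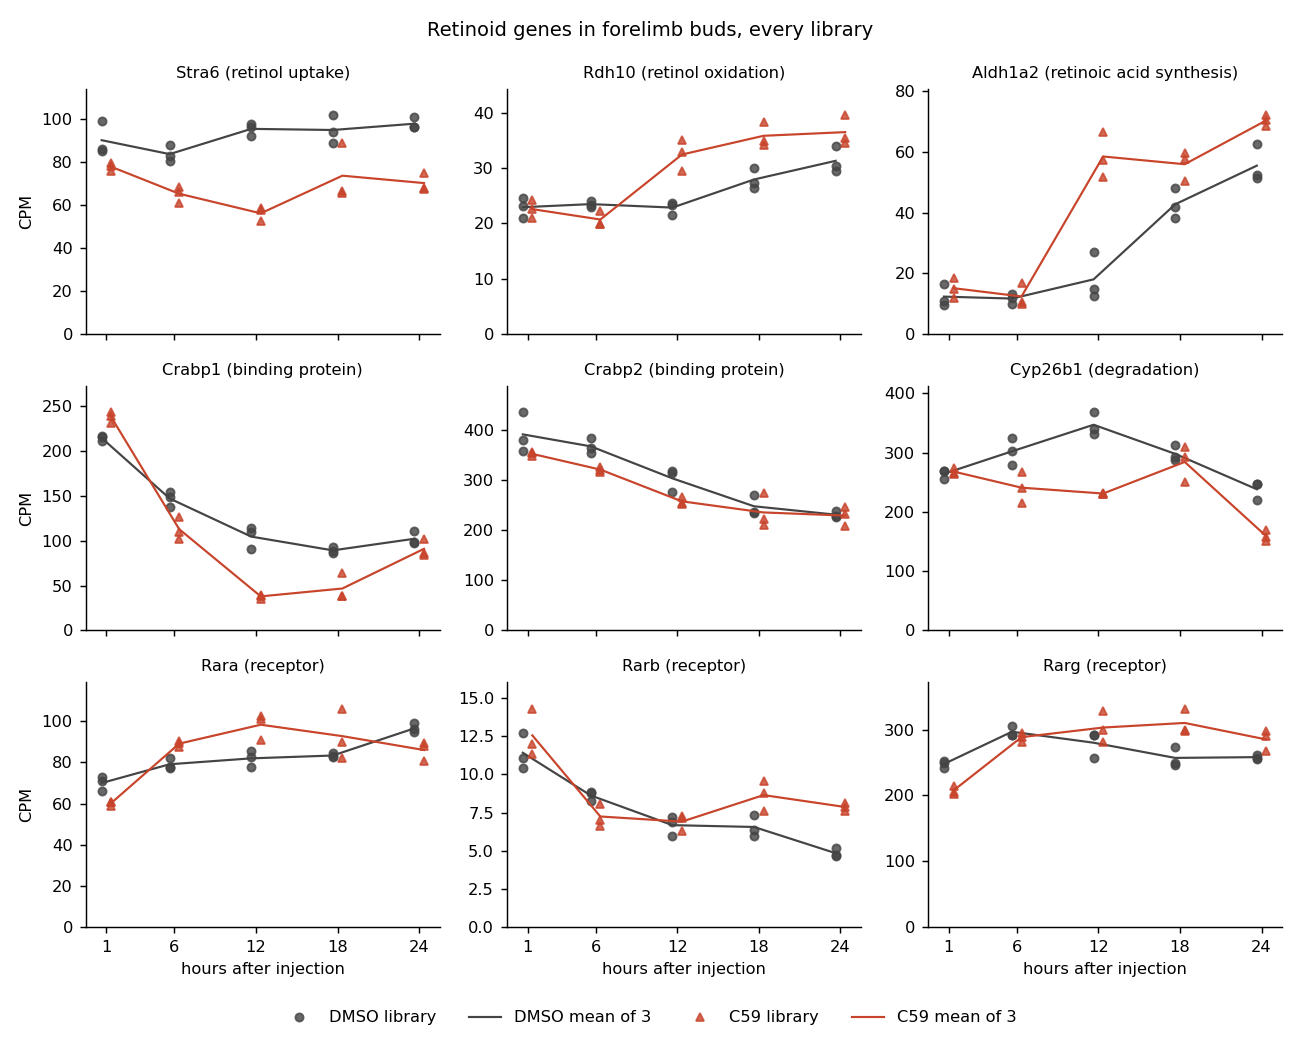
Each panel plots 1 gene, with hours after injection on the x axis and CPM on the y axis, which starts at 0; circles are DMSO libraries, triangles are C59 libraries and lines join the means of 3 libraries. *Aldh1a2* at 12 h shows all 3 C59 libraries (51.6 to 66.7 CPM) above all 3 DMSO libraries (12.3 to 26.9 CPM), and *Crabp1* at 12 h shows the opposite order.

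The number of the 9 genes that passed was highest at 12 h, where the share of all genes that passed was highest as well. At 1 h, 2 of the 9 genes passed the test, against 2.75% of all genes tested, and both were lower (1.61% of all genes were lower and 1.14% higher). At 6 h, 1 gene was higher, against 8.20% of all genes, and 4 were lower, against 11.4%, with 19.6% in either direction. At 12 h, 3 were higher, against 22.0%, and 4 were lower, against 25.5%, with 47.5% in either direction. At 18 h, 1 gene passed, against 7.08%, and it was lower (3.62% of all genes were lower and 3.46% higher). At 24 h, 2 were higher, against 2.88%, and 2 were lower, against 3.56%, with 6.44% in either direction. The median log2 fold change of the 9 genes was -0.02, -0.20, 0.05, 0.17 and 0.00 at these times, and that of all genes tested lay between 0.00 and 0.02. Of the 9 genes, 2 also changed by more than 1 on the log2 scale, *Aldh1a2* and *Crabp1* at 12 h, where 4.95% of all genes did so. That share was 0.283% at 1 h and 1.17% at 6 h. It was 1.29% at 18 h, and 0.819% at 24 h. The change of the effect between neighbouring times was tested as an interaction, and 4 of the 9 genes passed from 6 h to 12 h (18.1% of all genes, or 1.89% with a change beyond 1), 2 from 12 h to 18 h (8.49%, or 2.09%) and 1 from 18 h to 24 h (6.96%, or 1.27%). In bulk tissue, fewer cells of a type and less RNA per cell cannot be told apart, and this holds for every value given here.

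**Figure D2:**
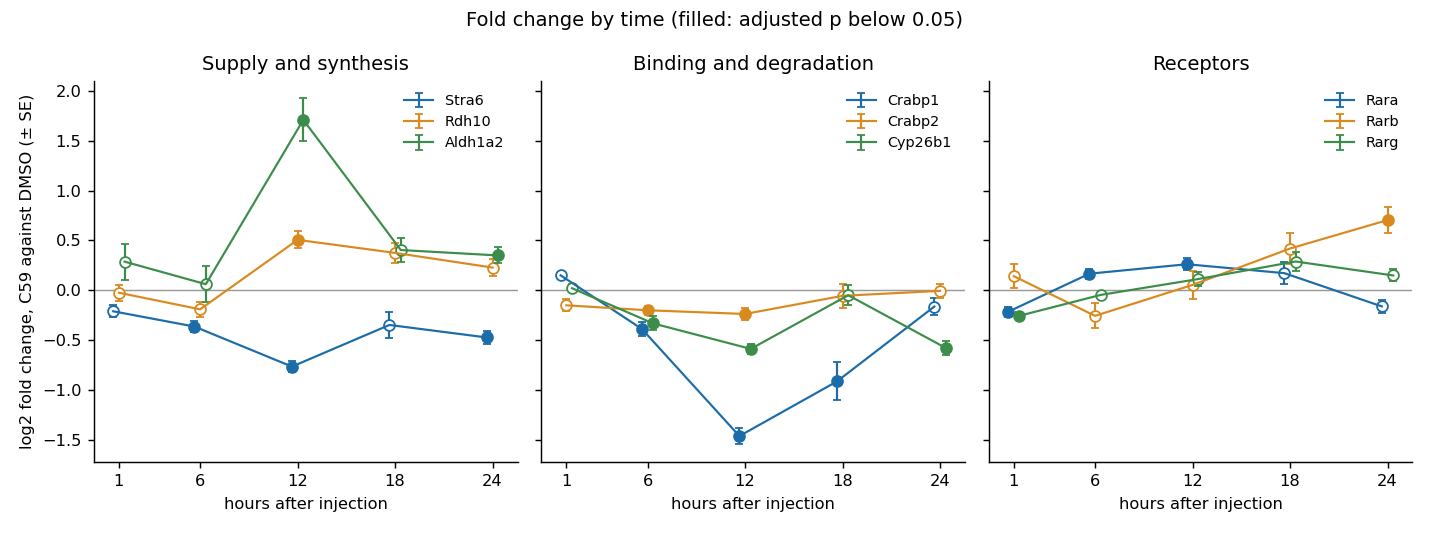
The log2 fold change of C59 against DMSO (y axis, error bars SE from the fit) is plotted against hours after injection for genes of supply and synthesis, of binding and degradation, and for receptors; filled points have an adjusted p below 0.05. *Aldh1a2* peaked at 1.71 and *Crabp1* reached -1.46, both at 12 h, and the receptors stayed between -0.26 and 0.70.

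*Aldh1a2* (ENSMUSG00000013584, chr9:71215789-71296243, plus strand, GRCm38), whose enzyme makes the last step to retinoic acid, showed the largest increase among the 9 genes. At 12 h its level was 14.6, 26.9 and 12.3 CPM in DMSO and 51.6, 57.2 and 66.7 CPM with C59. The lowest C59 library was thus above the highest DMSO library, and DMSO replicate 2 stood above the other two DMSO libraries. The rise was 3.27-fold (log2 fold change 1.71 ± 0.22 SE, adjusted p = 1.02e-04), larger in size than that of 98.9% of the genes tested at 12 h, and it ranged from 1.51 to 2.11 over all alternative settings with adjusted p of at most 0.00107. The C59 level at 12 h overlapped that of DMSO at 24 h (51.4 to 62.6 CPM).

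At 6 h the same gene had 13.0, 11.9 and 9.92 CPM in DMSO and 9.71, 16.7 and 10.45 CPM with C59 and did not pass (log2 fold change 0.06 ± 0.18 SE, adjusted p = 0.842). The effect at 12 h differed from that at 6 h by 1.65 ± 0.33 on the log2 scale (interaction test, adjusted p = 0.00270). In DMSO limb buds *Aldh1a2* rose between 12 h and 18 h, to 42.0, 48.0 and 38.1 CPM, while C59 limb buds stayed at 50.5, 59.6 and 57.7 CPM. The effect of C59 at 18 h was 0.40 (adjusted p = 0.0717), and it had dropped by 1.30 on the log2 scale from 12 h (interaction, adjusted p = 0.0120). At 24 h all C59 libraries (70.6, 72.1 and 68.4 CPM) were above all DMSO libraries (52.4, 51.4 and 62.6 CPM), with a log2 fold change of 0.35 ± 0.08 (adjusted p = 0.0244). Leaving out DMSO 24 h replicate 1 or 2 raised the adjusted p to 0.123 or 0.109 and ended that call, as did leaving out C59 24 h replicate 2 (adjusted p = 0.0625), and it was also lost in the fit of all 30 libraries (adjusted p = 0.332).

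*Rdh10* (ENSMUSG00000025921, chr1:16105774-16133734, plus strand), whose enzyme supplies retinal to ALDH1A2, followed *Aldh1a2* with a smaller change. At 12 h it had 23.7, 21.5 and 23.3 CPM in DMSO and 32.9, 35.01 and 29.4 CPM with C59, so the groups did not overlap. It rose 1.42-fold (log2 fold change 0.51 ± 0.08 SE, adjusted p = 6.54e-04). At 6 h all C59 libraries (19.9, 22.2 and 19.9 CPM) lay below all DMSO libraries (24.1, 23.3 and 23.0 CPM), but the difference did not pass (-0.19, adjusted p = 0.0964). From 6 h to 12 h the effect moved by 0.69 ± 0.11 on the log2 scale (interaction, adjusted p = 4.12e-04). The groups were still apart at 18 h (26.4, 30.02 and 27.3 CPM against 34.9, 38.4 and 34.1 CPM), with an adjusted p of 0.0587 that became 0.0169 without C59 18 h replicate 3.

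*Stra6* (ENSMUSG00000032327, chr9, plus strand), the receptor that takes up retinol from its plasma carrier, fell with C59 at 6, 12 and 24 h. In DMSO it kept a nearly level course, from 85.0 to 99.2 CPM at 1 h to 96.3 to 101 CPM at 24 h. With C59 it had 68.5, 66.1 and 61.0 CPM at 6 h against 82.6, 80.3 and 88.1 CPM in DMSO, and 52.3, 57.5 and 58.4 CPM at 12 h against 92.2, 97.9 and 96.2 CPM. At both times every C59 library was below every DMSO library. The log2 fold change was -0.36 ± 0.06 SE at 6 h (adjusted p = 6.63e-04) and -0.76 ± 0.06 SE at 12 h (adjusted p = 2.97e-06), where C59 limb buds held 0.589 times the DMSO level. The difference between both effects was -0.40 ± 0.08 (interaction, adjusted p = 0.00283).

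At 18 h *Stra6* had 66.4 and 65.6 CPM in C59 replicates 1 and 2 and 88.8 CPM in replicate 3, against 94.0, 88.8 and 102 CPM in DMSO. The difference did not pass with all libraries (-0.35, adjusted p = 0.150) and was -0.51 without C59 replicate 3 (adjusted p = 0.00337). At 24 h the 75.0, 68.1 and 67.5 CPM of the C59 libraries were again below the 96.4, 101 and 96.3 CPM of the DMSO libraries (log2 fold change -0.47 ± 0.07 SE, adjusted p = 0.00141). At 1 h, too, its C59 libraries (78.1, 79.4 and 75.8 CPM) were below its DMSO libraries, without passing (-0.21, adjusted p = 0.0751). The gene model in the deposited table starts downstream of the start that GENCODE M21 gives *Stra6*.

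*Crabp1* (ENSMUSG00000032291, chr9:54764748-54773110, plus strand) and *Crabp2* (ENSMUSG00000004885, chr3:87948666-87953376, plus strand) encode cytoplasmic proteins that bind retinoic acid, CRABP2 being known to pass it to the nucleus. *Crabp1* showed the largest decrease among the 9 genes. At 12 h it had 114, 109 and 90.7 CPM in DMSO and 38.7, 39.9 and 35.4 CPM with C59. The groups were far apart and the C59 libraries lay close together. C59 limb buds held 0.363 times the DMSO level (log2 fold change -1.46 ± 0.08 SE, adjusted p = 8.91e-07), a change larger in size than that of 98.2% of the genes tested.

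The decrease of *Crabp1* had begun at 6 h, with 155, 137 and 149 CPM in DMSO and 102, 110.3 and 127 CPM with C59 (log2 fold change -0.39 ± 0.07 SE, adjusted p = 0.00184), and it deepened by 1.08 ± 0.12 on the log2 scale to 12 h (interaction test, -1.08, adjusted p = 2.36e-05). At 1 h the order was the other way round, with 212, 217 and 215 CPM in DMSO and 239, 244 and 231 CPM with C59, a difference of 0.15 that narrowly missed the threshold (adjusted p = 0.0530). It passed with DESeq2 (adjusted p = 0.0350), with upper-quartile factors (adjusted p = 0.0491), with no filter (adjusted p = 0.0464) and without DMSO 1 h replicate 3 (adjusted p = 0.0483).

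At 18 h *Crabp1* had 86.4, 92.7 and 89.0 CPM in DMSO. C59 replicates 1 and 2 stayed at 38.2 and 38.1 CPM, near the level at 12 h, and replicate 3 had 64.1 CPM. *Crabp1* was the only one of the 9 genes to pass at 18 h (log2 fold change -0.91 ± 0.19 SE, adjusted p = 0.0244). The call was lost when DMSO 18 h replicate 1 (adjusted p = 0.0913), 2 (0.0814) or 3 (0.0986) or C59 18 h replicate 1 (0.0573) or 2 (0.0867) was left out, with log2 fold changes between -0.94 and -0.78. Without C59 18 h replicate 3, the library farthest from its group, 4 of the 9 genes passed at 18 h: *Crabp1*, *Stra6*, *Rdh10* and *Rarg*. The share of all genes that passed in that fit was not computed, so this count cannot be set against it. At 24 h the groups overlapped again, with 97.1, 111 and 98.8 CPM in DMSO and 103, 84.5 and 86.1 CPM with C59 (-0.16, adjusted p = 0.283), and the call was made without C59 24 h replicate 1 (-0.26, adjusted p = 0.0285). The effect moved by 0.74 ± 0.23 on the log2 scale between 18 h and 24 h, which did not pass with all libraries (interaction, adjusted p = 0.0720) and did without C59 18 h replicate 3 (1.04, adjusted p = 1.11e-04).

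*Crabp2* changed less. At 6 h all C59 libraries (326, 320.4 and 317 CPM) were below all DMSO libraries (384, 355 and 363 CPM), and at 12 h the same order held (265, 253 and 255 CPM against 315, 276 and 319 CPM). The log2 fold changes were -0.20 ± 0.05 SE (adjusted p = 0.00736) and -0.24 ± 0.06 SE (adjusted p = 0.00669). At 6 h the call was lost in 3 alternatives. These included limma on log2(FPKM + 1) (adjusted p = 0.0923) and the fit of all 30 libraries (adjusted p = 0.123). At 12 h it was lost in 2, including limma on log2(FPKM + 1) (adjusted p = 0.0507), with adjusted p of at most 0.0512. At 18 h and 24 h the groups overlapped (-0.05 and 0.00 on the log2 scale).

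*Cyp26b1* (ENSMUSG00000063415, chr6:84571414-84593908, minus strand), whose enzyme degrades retinoic acid, was lower with C59 at 6, 12 and 24 h but not at 18 h. In DMSO it rose to a peak at 12 h, from 255, 269 and 269 CPM at 1 h to 340.4, 332 and 369 CPM. C59 limb buds did not follow this rise and had 267, 216 and 240.3 CPM at 6 h and 229.8, 233 and 231 CPM at 12 h. The log2 fold change was -0.33 ± 0.07 SE at 6 h (adjusted p = 0.00470) and -0.59 ± 0.05 SE at 12 h (adjusted p = 5.86e-06), where C59 limb buds held 0.666 times the DMSO level.

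At 18 h both groups came together, with 288, 293 and 313 CPM in DMSO and 294, 251 and 309 CPM with C59 (log2 fold change -0.05 ± 0.10 SE, adjusted p = 0.809). At 24 h they were apart once more, with 247, 248 and 220.3 CPM in DMSO and 169, 157 and 150.5 CPM with C59 (-0.58 ± 0.07 SE, adjusted p = 4.08e-04). The gap closed by 0.54 ± 0.12 on the log2 scale from 12 h to 18 h (interaction, adjusted p = 0.0102) and opened by 0.54 ± 0.12 from 18 h to 24 h (interaction, -0.54, adjusted p = 0.0198). At 18 h C59 replicates 1 and 3 lay within the range of the DMSO libraries and replicate 2 lay below it. The second interaction did not pass once DMSO 24 h replicate 1 or 2 was left out (adjusted p = 0.0582 and 0.0535), nor once C59 24 h replicate 2 was (0.0575).

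Ratios between these genes were computed within each library from FPKM and are given as values, without a test. *Crabp1* made up 29.3%, 31.4% and 24.6% of the summed *Crabp1* and *Crabp2* FPKM in DMSO at 12 h, and 14.5%, 15.6% and 13.9% with C59. At 24 h its share was 33.4%, 35.05% and 33.4% against 32.5%, 29.8% and 32.3%, so the groups remained apart by a small margin. The ratio of *Cyp26b1* to *Aldh1a2* FPKM was 12.4, 6.29 and 15.6 in DMSO at 12 h, and 2.29, 2.10 and 1.79 with C59. DMSO limb buds were at 3.47, 3.05 and 4.22 at 18 h and at 2.39, 2.40 and 1.78 at 24 h, so that C59 libraries at 12 h lay in the range of DMSO at 24 h. At 24 h C59 limb buds were lower still, at 1.22, 1.10 and 1.11.

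**Figure D3:**
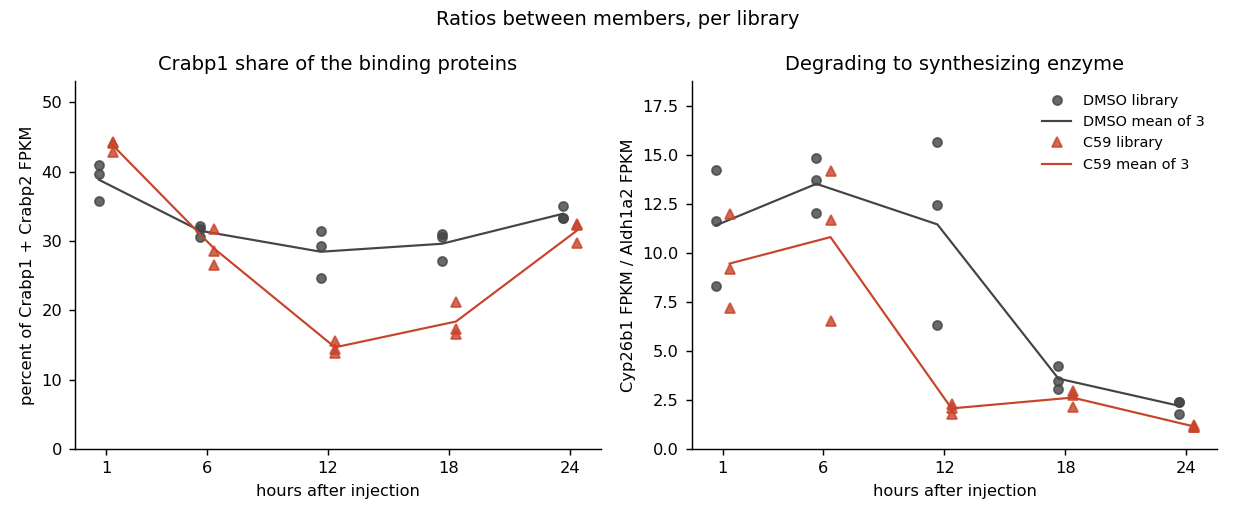
The left panel plots the *Crabp1* share of the *Crabp1* plus *Crabp2* FPKM in percent and the right panel the ratio of *Cyp26b1* to *Aldh1a2* FPKM, both against hours after injection; circles are DMSO libraries, triangles are C59 libraries and lines join the means of 3. At 12 h the C59 libraries lie below all DMSO libraries in both panels, at 13.9% to 15.6% and at 1.79 to 2.29.

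*Rarg* made up most of the summed FPKM of the 3 receptors in every library, with a lowest share of 69.6% and a highest of 76.3%. *Rarg* (ENSMUSG00000001288, chr15:102234938-102257517, minus strand) and *Rara* (ENSMUSG00000037992, chr11:98927818-98974942, plus strand) were the only genes of the 9 to pass at 1 h. *Rarg* had 249.6, 252 and 242 CPM in DMSO and 202, 206 and 215 CPM with C59, a log2 fold change of -0.25 ± 0.04 SE (adjusted p = 0.00319). *Rara* had 66.3, 72.9 and 70.8 CPM and 60.9, 60.9 and 59.01 CPM (-0.21 ± 0.05 SE, adjusted p = 0.0427). Neither group pair overlapped, and the *Rara* call was lost without DMSO 1 h replicate 2 (adjusted p = 0.144) or C59 1 h replicate 1 (0.124), 2 (0.118) or 3 (0.142). Without DMSO 1 h replicate 3, 6 of the 9 genes passed at 1 h, in a fit for which the share of all genes was not computed.

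At later times *Rara* was higher with C59, with 87.4, 90.5 and 89.4 CPM against 77.8, 82.2 and 77.4 CPM at 6 h and 103, 101 and 91.1 CPM against 85.4, 82.6 and 77.9 CPM at 12 h. The log2 fold change was 0.17 ± 0.05 SE at 6 h (adjusted p = 0.0284) and 0.26 ± 0.06 SE at 12 h (adjusted p = 0.00421). The call at 6 h was lost when any library other than DMSO 6 h replicate 2 was left out (without DMSO 6 h replicate 1, adjusted p = 0.0751, and replicate 3, 0.105; without C59 6 h replicate 1, 0.0578, replicate 2, 0.0904, and replicate 3, 0.0734). *Rarg* did not pass from 6 h on, with log2 fold changes of -0.05, 0.11, 0.29 and 0.15, and at 18 h its C59 libraries (299.8, 298 and 332 CPM) were all above its DMSO libraries (274, 247 and 249.9 CPM, adjusted p = 0.0952). At 24 h *Rara* was at 89.7, 80.5 and 88.0 CPM with C59 against 96.1, 99.1 and 94.6 CPM in DMSO, apart but not passing (-0.16, adjusted p = 0.151).

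*Rarb* (ENSMUSG00000017491, chr14:16430839-16819156, minus strand) is known for a retinoic acid response element near 1 of its starts. The RefSeq window that begins 250 bases before that start (GRCm38.p6) was searched for pairs of the receptor motif AGGTCA (also taken as GGGTCA, also as AGTTCA and also as GGTTCA) in the same orientation and 5 bases apart, on both strands. Only bases before the start were searched, and 7 of the 9 genes had at least 1 window. The pair was found at chr14:16575513-16575529, 53 to 37 bases before the start, and among 32851 windows of all genes 29 (0.0883%) held such a pair. The stretch chr14:16575506-16575535 (minus strand, read 5′ to 3′) is shown because it is the 1 match among the 9 genes, with the pair and its spacer in capitals.
Rarb: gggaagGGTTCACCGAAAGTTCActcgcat

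Longer transcripts of GENCODE M21 place these bases inside an exon of *Rarb*. Pairs with a spacing of 1 or 2 bases were found in no window of the 9 genes. The letters CTTTGAT, to which WNT effectors of the TCF family bind, were in 1053 of the 32851 windows (3.21%). Among the 9 genes they were only in a window of *Stra6*, which had 4 windows, on the reverse strand. *Crabp1* and *Cyp26b1*, which also fell with C59, had 1 window each, without these letters. The *Stra6* stretch, chr9:58129174-58129240 (plus strand), lies between exons of *Stra6* and is shown because it holds the 1 match among the 9 genes, in capitals.
Stra6: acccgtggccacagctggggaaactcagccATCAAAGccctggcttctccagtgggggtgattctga

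A match describes letters only, and no binding was measured here. CTTTGAA was in 1464 windows (4.46%) and in no window of the 7 genes that had one.

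In counts, *Rarb* was the lowest receptor and fell in DMSO from 12.7, 10.4 and 11.1 CPM at 1 h to 4.73, 5.15 and 4.64 CPM at 24 h. With C59 it had 7.87, 8.11 and 7.60 CPM at 24 h, above all DMSO libraries. The log2 fold change was 0.70 ± 0.13 SE (adjusted p = 0.00866), or 1.63-fold, larger in size than that of 96.5% of the genes tested at that time. At 18 h the C59 libraries (8.79, 7.59 and 9.54 CPM) were likewise above the DMSO libraries (7.36, 6.37 and 5.94 CPM) without passing (0.42, adjusted p = 0.134), and at 12 h the groups overlapped (0.05, adjusted p = 0.763).

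A limit of these values is that 34.1% of the exon bases of *Rarb* are shared with *Top2b* on the opposite strand, a gene with 392859 counts over all libraries against 5311 for *Rarb*, and the strand of counting was not stated. *Top2b* itself differed by -0.12 ± 0.09 on the log2 scale at 24 h (adjusted p = 0.431), and its part in the *Rarb* value was not tested. On the FPKM scale *Rarb* was at 2.75 ± 0.0668 FPKM in DMSO and 3.69 ± 0.280 FPKM with C59, and with limma on log2(FPKM + 1) the difference was 0.32 and did not pass (adjusted p = 0.0597). This was 1 of 2 alternatives in which the call at 24 h was lost, with adjusted p of at most 0.0644.

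Other genes of the pathway were taken as lists. Of 13 other genes of retinoid supply and oxidation, 7 were tested at 6 h and 1 was lower, and 8 were tested at 12 h, 2 higher and 1 lower. Among all genes tested at 6 h, 8.20% were higher and 11.4% lower, with 19.6% in either direction. Among those tested at 12 h, 22.0% were higher and 25.5% lower, with 47.5% in either direction. *Dhrs3*, which reduces retinal back to retinol, fell by 0.41 at 6 h (adjusted p = 0.0141) and rose by 0.54 ± 0.11 SE on the log2 scale at 12 h (adjusted p = 0.00216), and the change between both effects was 0.96 ± 0.15 (adjusted p = 4.02e-04). *Rdh14* rose by 0.34 at 12 h (adjusted p = 0.0255). Of the 7 transport and storage genes in the count table, 4 were tested, and *Fabp5*, a fatty acid and retinoic acid binding protein, was the 1 that passed, at -0.45 at 6 h (adjusted p = 3.31e-04) and -0.90 ± 0.09 SE at 12 h (adjusted p = 1.94e-05).

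Both other degrading enzymes were tested. *Cyp26a1* rose by 0.84 ± 0.17 SE on the log2 scale at 12 h (adjusted p = 0.00201), in the direction opposite to *Cyp26b1*, and *Cyp26c1* fell by 1.44 ± 0.46 at 6 h (adjusted p = 0.0420) at a mean of 0.754 CPM over all libraries. Of 11 partner receptors and cofactors, 4 passed at 6 h, all higher (8.20% of all genes tested were higher), led by *Crebbp* (0.40, adjusted p = 0.0124) and *Ep300* (0.28, adjusted p = 0.0292), which encode histone acetyltransferases. At 12 h 5 passed, all higher (22.0% of all genes), led by *Rxrg* (0.78 ± 0.17 SE, adjusted p = 0.00354), a partner of the RAR receptors, and *Ncoa1* (0.35, adjusted p = 0.0128). The list's median log2 fold change was 0.20 at 12 h, beside 0.02 for all genes tested. At 24 h *Rxrg* was higher (0.55 ± 0.13 SE, adjusted p = 0.0326), and *Ep300* (-0.28, adjusted p = 0.0314) and *Ncoa2* (-0.23, adjusted p = 0.0476) were lower.

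Of 17 genes known to respond to retinoic acid, 14 were tested at 12 h and 4 passed, all higher. Of all genes tested, 22.0% were higher and 25.5% lower, with 47.5% in either direction. Passing or not, 7 of the 14 were higher and 7 lower. Their median log2 fold change was 0.04, beside 0.02 for all genes tested. The 2 largest were *Cyp26a1* (0.84) and *Dhrs3* (0.54), which stand in this list too. At 6 h 1 of 15 was higher, *Nr2f2* (0.24, adjusted p = 0.00825), and 2 were lower, *Hoxa4* (-0.71, adjusted p = 0.00802) and *Dhrs3*. Of all genes tested at 6 h, 8.20% were higher and 11.4% lower. At 18 h *Meis2* rose by 0.40 (adjusted p = 0.0466) and *Rarres1* fell by 0.95 (adjusted p = 0.0137).

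During normal development, between 1 h and 24 h in DMSO, 6 of the 11 partner receptors and cofactors passed, all higher, in a comparison where 59.3% of all genes passed and 30.2% were higher. They were led by *Rxrg* (2.87 ± 0.17 SE on the log2 scale, adjusted p = 4.02e-09) and *Ncoa1* (1.82 ± 0.07 SE, adjusted p = 3.59e-11). Of the 9 supply and oxidation genes tested, 4 were higher and 1 was lower, a share near that of all genes. Those higher included *Aldh1a3* (adjusted p = 4.04e-08) and *Aldh1a1* (adjusted p = 5.49e-06), which make retinoic acid as *Aldh1a2* does, at means over all libraries of 1.56 and 0.385 CPM. Of the 16 genes known to respond to retinoic acid that were tested, 5 were higher and 8 lower (29.2% of all genes were lower), led by *Cdx1* (-2.41 ± 0.44 SE, adjusted p = 2.81e-04) and *Rarres1* (2.34 ± 0.19 SE, adjusted p = 9.27e-08).

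**Figure D4:**
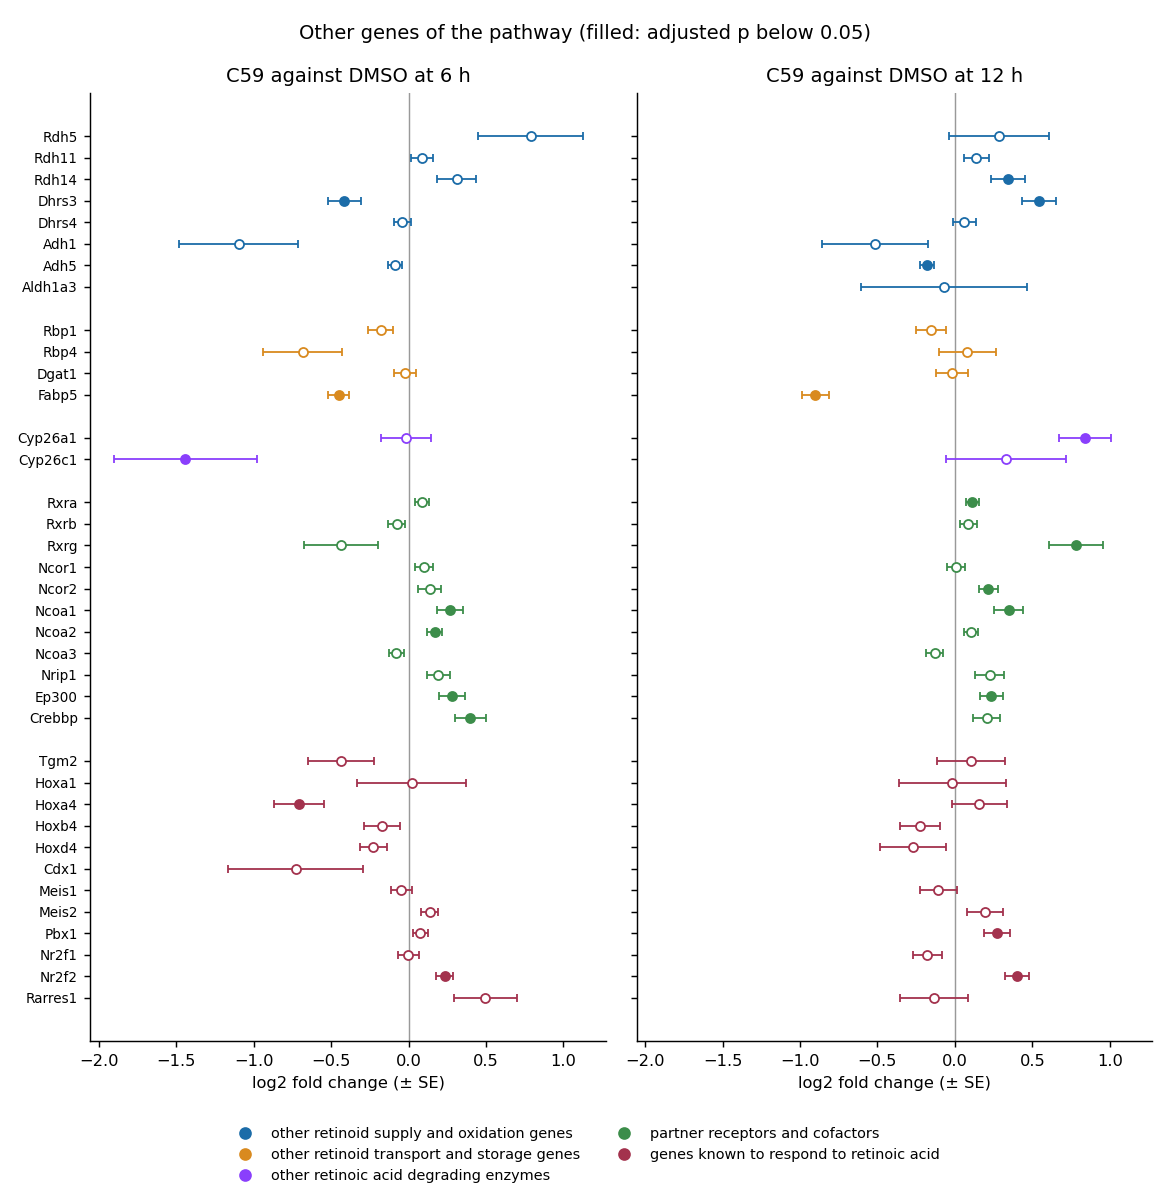
The log2 fold change of C59 against DMSO (x axis, error bars SE from the fit) is plotted for the other genes of the pathway at 6 h and at 12 h, coloured by list and drawn once where a gene stands in more than 1 list; filled points have an adjusted p below 0.05. *Dhrs3* is on opposite sides of 0 at both times, and the partner receptors and cofactors that passed lie to the right of 0.

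Marker genes of other tissues and cell types also differed between C59 and DMSO at 1, 6, 12, 18 and 24 h. At 1 h erythroid genes summed to 3342 to 4273 CPM in DMSO and 4310 to 6137 CPM with C59 (2 of 5 tested higher). Limb mesenchyme genes summed to 1769 to 1829 CPM and 1660 to 1755 CPM (2 of 6 lower). Trunk, flank and body wall genes (2 of 8 higher) and proximal limb genes (1 of 5 lower) overlapped in their sums. No gene of the other marker lists passed at 1 h, where 2.75% of all genes tested passed. At 6 h the summed CPM of 6 limb mesenchyme genes was 1848 to 1886 in DMSO and 1308 to 1422 with C59 (4 of 6 lower), and that of 5 distal limb genes was 627 to 664 and 498 to 544 (2 of 5 lower, 1 higher). Cartilage genes summed to 735 to 800.4 CPM and 905 to 1079 CPM, muscle genes to 138 to 154 CPM and 170.3 to 179.8 CPM, and neural crest and Schwann precursor genes to 38.1 to 42.6 CPM and 46.2 to 61.0 CPM, each with 2 genes higher by the test. Of the muscle genes, 1 was lower. Trunk, flank and body wall genes overlapped (236 to 259 CPM and 248 to 257 CPM), with 1 of the 7 tested higher and 1 lower. Sums also overlapped for surface ectoderm genes (1 of 7 higher, 2 lower), erythroid genes (2 of 5 tested lower) and endothelial genes (1 of 5 lower). Hindlimb genes summed to 14.8 to 16.5 CPM in DMSO and 17.1 to 22.1 CPM with C59 (1 of 2 higher).

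At 12 h the summed CPM of 5 distal limb genes was 697 to 773 in DMSO and 374 to 563 with C59, with 3 of 5 lower. That of 6 limb mesenchyme genes was 1751 to 1831 and 1208 to 1269.5, with 5 of 6 lower and 1 higher. The summed CPM of 6 cartilage genes was 868 to 929 in DMSO and 1651 to 2356 with C59, with 5 of 6 higher. Neural crest and Schwann precursor genes (4 of 5 higher) summed to 44.1 to 66.4 CPM and 103 to 144 CPM, surface ectoderm genes (6 of 7 higher) to 259 to 290.2 CPM and 362 to 486 CPM, macrophage genes (4 of 5 higher) to 19.3 to 20.5 CPM and 32.0 to 32.8 CPM, and endothelial genes (3 of 5 higher) to 261 to 285 CPM and 328 to 362 CPM. Genes of the trunk, flank and body wall, where *Aldh1a2* is known to be active, summed to 251 to 270.3 CPM in DMSO and 196 to 292 CPM with C59, overlapping, with 2 of the 7 tested lower. Muscle genes also overlapped in their sum (154 to 167 CPM and 139.5 to 181 CPM), but 4 of 7 were lower and 2 higher, with a median log2 fold change of -0.93. Proximal limb genes (933 to 1003 CPM and 882 to 1145 CPM, 2 of 5 higher), neural tube genes (15.1 to 21.3 CPM and 19.99 to 26.1 CPM, 1 of 3 tested higher) and erythroid genes (3825 to 5532 CPM and 4879.7 to 7055 CPM, 1 of 5 tested higher) overlapped as well. No defining marker of these lists was at 0 in all libraries at 12 h.

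At 24 h, when *Cyp26b1*, *Stra6*, *Aldh1a2* and *Rarb* passed, the summed distal limb genes were at 728 to 759.6 CPM in DMSO and 493 to 564 CPM with C59, with 5 of 5 lower. The cartilage genes were at 1161 to 1308 CPM and 1393 to 1566 CPM (2 of 6 higher), surface ectoderm genes at 315 to 322 CPM and 367 to 403 CPM (3 of 7 higher) and macrophage genes at 29.1 to 32.2 CPM and 37.4 to 42.3 CPM (2 of 5 higher). Muscle genes were at 253 to 279.7 CPM and 197 to 228 CPM (4 of 7 lower), endothelial genes at 282 to 286 CPM and 239 to 260.3 CPM (1 of 5 lower), limb mesenchyme genes at 1658 to 1717 CPM and 1512 to 1656 CPM (2 of 6 lower) and neural tube genes at 20.3 to 23.5 CPM and 12.9 to 16.5 CPM (1 of 2 tested lower). Neural crest and Schwann precursor genes overlapped in their sum (112 to 120.2 CPM and 109 to 169 CPM), with 3 of 5 higher. Erythroid genes overlapped too, with 1 of 5 tested lower. At 18 h, when *Crabp1* passed, distal limb genes were at 717 to 753 CPM and 346 to 416 CPM (4 of 5 lower). Muscle genes were at 214 to 228 CPM and 146 to 184 CPM (4 of 7 lower). Cartilage genes were at 968 to 1105 CPM and 1473 to 1797 CPM (3 of 6 higher). Surface ectoderm genes were at 269 to 286 CPM and 342 to 402 CPM (4 of 7 higher). Macrophage genes were at 27.7 to 30.04 CPM and 38.4 to 46.4 CPM (3 of 5 higher). Neural crest and Schwann precursor genes were at 83.3 to 98.7 CPM and 118 to 139 CPM (1 of 5 higher). Neural tube genes were at 18.5 to 22.9 CPM and 14.6 to 17.8 CPM (0 of 3 tested passed). The other sums overlapped, with 2 of 6 limb mesenchyme genes lower, 1 of 7 tested trunk, flank and body wall genes lower and 1 of 5 proximal limb genes higher. The part of these cell types in the changes of the 9 genes was not tested at any of these times.

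Likeness to other genes was measured over the means of the 10 groups among 12540 genes with a mean of at least 1 CPM, as a description, since the groups share the course of development. *Aldh1a2* was most like *Plpp5* (Pearson r = 0.99), *Ntng1*, *Cobl*, *Sspn* and *Hs3st3a1* (r of at least 0.98). *Crabp1* was most like *Tsen15* (r = 0.99), *Gap43*, *Psmd3*, *Thyn1* and *Otud6b* (r of at least 0.98). Among the 9 genes themselves, the highest r was that of *Aldh1a2* and *Rdh10* (0.96) and the lowest that of *Aldh1a2* and *Crabp2* (-0.95).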

How the data were processed

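Forelimb bud RNA of 30 libraries was analysed, with groups and replicates from the sample labels. Per the labels and the study's methods, cutadapt 1.16 was used by the authors for trimming, and STAR 2.7.0e for alignment to mm10 with their own gene annotation. The deposited counts are raw fragment counts per autosomal gene from STAR, without normalization, and the strand of counting is not given in the sources used here. The deposited FPKM values were computed by the authors with Cufflinks 2.2.1, unstranded and with multi-read and bias correction.

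Genes were matched to GENCODE M21 (50628 of 50833, the 205 unmatched holding 0.0068% of the counts), and protein-coding autosomal genes were kept. Each time point was tested on its own 6 libraries in R 4.3.3 by the two-sided quasi-likelihood F test of edgeR 4.0.16 (after TMM scaling; filterByExpr was set to at least 10 counts and a total of at least 15). Genes passed at a Benjamini-Hochberg adjusted p below 0.05 over all genes tested. SE values come from the log2 fold change and the F statistic. Changes of the effect between neighbouring times were tested as interaction contrasts on 12 libraries. CPM are counts scaled to the protein-coding autosomal total of a library, with TMM factors over all 30 libraries, and log2 fold changes come from each fit. Depth was 18188636 to 38974885 counts per library, and limited *Rarb* most, with 5311 counts over all 30 libraries. The study's methods describe replicates as embryos of several litters, in the part on embryo collection, and the labels do not tie libraries to litters. The p-values measure the spread between these libraries.

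Alternatives changed the tool (DESeq2 1.42.0, or limma 3.58.1 on log2(FPKM + 1) and log2(FPKM + 0.1)), the scaling (DESeq2 or upper-quartile size factors), the genes tested (unfiltered, only those averaging 1 CPM or more, or every gene deposited) and the libraries (a joint fit of all 30, or 1 left out). The replicate number was added as a block, and a log2 change beyond 1 was required, in separate fits. The fits were tested on simulated data with known changes. The 9 genes and the lists were chosen with earlier results of these data known. The 9 genes are all described, and of each pathway list the 1 or 2 genes with the largest change among those that passed, with further genes named after their values were seen. Promoter windows are from RefSeq (GRCm38.p6).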

Additional observations from a re-analysis of the deposited data

Results flagged for a closer look

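Changes of the C59 effect between neighbouring time points passed the interaction test for 4 of the 9 genes from 6 h to 12 h (18.1% of all genes tested passed), for 2 from 12 h to 18 h (8.49%) and for 1 from 18 h to 24 h (6.96%). From 6 h to 12 h the log2 fold change moved by 1.65 for *Aldh1a2*, 0.69 for *Rdh10*, -1.08 for *Crabp1* and -0.40 for *Stra6*. From 12 h to 18 h it moved by -1.30 for *Aldh1a2* and by 0.54 for *Cyp26b1*, and from 18 h to 24 h by -0.54 for *Cyp26b1*. Neighbouring contrasts share the libraries of the time point between them, so the opposite signs for *Cyp26b1* rest on the same 18 h libraries.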

How the results depend on the processing

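Counts of the 9 genes that passed changed by more than 1.5 times as follows. With a log2 fold change beyond 1 required as well, 0 passed in place of 2 at 1 h, 0 in place of 5 at 6 h, 2 in place of 7 at 12 h, 0 in place of 1 at 18 h, 0 in place of 4 at 24 h and 3 in place of 7 between DMSO 24 h and 1 h, and for the changes of effect 2 in place of 4 (6 h to 12 h), 1 in place of 2 (12 h to 18 h) and 0 in place of 1 (18 h to 24 h), a rule that counts fewer genes by construction. At 1 h, 4 passed with no filter, and 1 each in the fit of all 30 libraries and with limma at either pseudocount. At 6 h, 3 passed in each of these last fits. At 18 h, 3 passed with DESeq2, 2 with upper-quartile factors and 5 in the fit of all 30 libraries. For the change of effect, 4 passed from 12 h to 18 h and 3 from 18 h to 24 h in the fit of all 30 libraries, and 2 with DESeq2 in the latter. The cause was not tested. Leaving out 1 library gave 1 to 6 genes at 1 h, 0 to 4 at 18 h and 0 to 2 for the change from 18 h to 24 h. The share of all genes that passed was not computed for these alternatives, so the counts describe the settings only.

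Same-numbered replicates did not deviate together (1 of 15 pairs had a correlation over 0.1, and 5 of 15 C59 libraries correlated best with their own number), so the numbers were not taken to pair the samples. With the replicate number as a block, 1 gene passed at 1 h and 4 at 6 h, *Rara* being the gene not called (adjusted p = 0.0872 and 0.0531), and the counts of the other comparisons were as given.

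Of 1458 single-gene values under alternatives, 1348 kept direction and side of the threshold and 34 changed sign, all of genes not called. With limma, the log2 fold change at 1 h was -0.0055 and -0.0056 for *Cyp26b1* and -0.031 and -0.0365 for *Rarb* (pseudocounts 1 and 0.1), and that for the change from 18 h to 24 h was -0.097 and -0.11 for *Rarb*. For *Crabp2* it was 0.0080 (upper-quartile factors) and 0.0092 (limma, both) at 24 h, and 0.026 and 0.022 for the change from 6 h to 12 h. With 1 library left out, the log2 values spanned -0.0054 to 0.033 (*Cyp26b1*) and -0.083 to 0.028 (*Rdh10*) at 1 h, -0.21 to 0.21 (*Aldh1a2*) at 6 h, -0.027 to 0.12 (*Rarb*) at 12 h, -0.18 to 0.023 (*Crabp2*) and -0.12 to 0.036 (*Cyp26b1*) at 18 h, and -0.064 to 0.066 (*Crabp2*) at 24 h. For the changes of effect they spanned -0.091 to 0.017 (*Crabp2*, 6 h to 12 h), -0.20 to 0.00051 (*Rara*, 12 h to 18 h), and -0.038 to 0.17 (*Crabp2*), -0.16 to 0.034 (*Aldh1a2*) and -0.21 to 0.024 (*Stra6*) from 18 h to 24 h. With 3 libraries a group, small changes were limited by the spread between libraries, widest at 18 h (biological coefficient of variation 12.5%, and 5.41% to 7.52% at the other times).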
